A study of Homo sapiens with 6 samples.

Results

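The 10 genes described here are 2 Wnt ligands (WNT5A and WNT5B), 4 Frizzled receptors (FZD1, FZD2, FZD6 and FZD7), the co-receptors LRP6 and RYK, the intracellular transducer CTNNB1 (beta-catenin) and the secreted antagonist DKK1. They were chosen by symbol, 10 rows out of 60892 in the deposited count table, and the set was picked because WNT5A was nearly absent after ZQ. Their differences between the groups are therefore given as a description with no p-value. All 10 were measured and all 10 passed the low-count filter of the fit over the whole table, WNT5A, LRP6 and FZD1 through the control libraries alone.

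RNA-seq compared BEAS-2B cells given ZQ (Zhenqi Granules, a herbal preparation, at 10 mg/mL) for 24 hours with BEAS-2B cells given medium for the same time. BEAS-2B is a virus-immortalised cell line grown out of human bronchial epithelium, here labelled wild type. Every library of both groups came from cells exposed to methicillin-resistant Staphylococcus aureus (MRSA) for 2 hours, with 1 bacterium added per cell, so no group lacked bacteria. Each group had 3 libraries, and nothing in the labels says that they were separate cultures, so errors measure the spread between libraries, which may be technical.

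Wnt proteins are lipid-modified secreted ligands that bind Frizzled receptors on the cell surface. With the co-receptor LRP6, binding stops a cytosolic complex from marking beta-catenin for destruction, and beta-catenin then enters the nucleus and drives TCF/LEF target genes. WNT5A and its close relative WNT5B act mostly through beta-catenin-independent routes, with the receptors ROR1, ROR2, RYK and Frizzled, that control cell polarity, movement and calcium. In the lung WNT5A is known for roles in branching of the airways and in repair and fibrosis.

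The libraries of the groups differed in more than treatment. ZQ libraries held 2064566 to 2451746 counts and control libraries 11665967 to 14699677, so that a single count was worth 0.479 to 0.553 CPM (counts scaled to library total and TMM factor) with ZQ and 0.0575 to 0.0763 CPM in control. The mitochondrial genome took 39.6% ± 1.13 of counts with ZQ and 8.74% ± 1.57 in control (SD, n = 3 each). Of 12994 genes tested with edgeR's quasi-likelihood test, 38.3% passed an adjusted p of 0.05 and are referred to as called, 2506 higher with ZQ (19.3%) and 2472 lower (19%). Upper-quartile scaling gave 3767 higher and 1611 lower, and library totals gave 1752 and 3580. These scalings moved the median log2 change of all tested genes by 0.45 and -0.40, and folds are to be read relative to that. The epithelial and mesenchymal markers were mixed within each list. Of 8 epithelial markers 4 had a higher mean with ZQ and their sums were 1732 to 1960 CPM with ZQ and 1898 to 3373 CPM in control, with KRT8 at 674 CPM and 1591 CPM, KRT7 at 471 CPM and 154 CPM and KRT19 at 1.17 CPM and 5.69 CPM. KRT5 held 3 counts with ZQ and none in control, and CDH1, which encodes the E-cadherin of epithelial junctions, held 10 and 6. Of 8 mesenchymal markers 4 had a higher mean with ZQ and the sums were 1561 to 1832 CPM with ZQ and 1668 to 2277 CPM in control, with VIM at 1505 CPM and 460 CPM, COL1A1 at 113 CPM and 391 CPM and FN1 at 109 CPM and 1036 CPM. The 7 leukocyte markers summed to 7.19 to 19.9 CPM with ZQ and 0.305 to 1.27 CPM in control, with CD68 and LYZ at 0 in every library, the 5 endothelial markers to 18.2 to 23.0 CPM and 0.921 to 3.12 CPM, and the erythroid gene HBB held 13 counts with ZQ and none in control. Genes of olfactory receptors, used mainly in the nose, gave a background density of 1.50 counts per kb of exon pooled over ZQ libraries and 0.167 over control libraries. These are raw counts from libraries of unequal depth. Scaled for depth, the background with ZQ exceeded that in control by more than these values show. The part that mitochondrial share, these markers or this background had in the results below was not tested.

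WNT5A, the ligand most tied to beta-catenin-independent signalling, was close to absent after ZQ. It had 2, 0 and 1 counts in the ZQ libraries, against 659, 617 and 465 counts in the control libraries. These are 1.09, 0 and 0.553 CPM with ZQ and 44.6, 35.5 and 35.5 CPM in control. The groups lay far apart, and the highest ZQ library rested on 2 reads. Summed over libraries and scaled for depth, WNT5A was 73.6-fold lower with ZQ (95% exact binomial interval 25.1 to 357), an interval that covers counting error only. The fitted log2 change was -6.16 ± 0.67 (SE). Leaving out 1 library at a time gave values from -7.24 (without ZQ replicate 1) to -5.63 (without ZQ replicate 2), and offsets for GC content and transcript length gave -5.52. The ZQ reads of WNT5A came to 0.406 counts per kb, under the olfactory receptor density. In bulk RNA, fewer cells making WNT5A and less WNT5A RNA per cell cannot be told apart.

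The WNT5A gene lies on the minus strand of chromosome 3 at 55465715 to 55490539 (GRCh38, GENCODE release 29), and no other annotated gene shares its exons. RefSeq gives it a pair of start sites. The 250 bases before the downstream start, at chr3:55481399-55481648 on the minus strand (GRCh38.p14), fall inside the gene in an intron of longer transcripts. They are shown because WNT5A set the choice of these genes, and capitals would mark matches to the motifs searched on both strands: the TATA box written as TATAAA, the core of the TCF/LEF site as CTTTGA, the GC box as GGGCGG, and the CCAAT box.
WNT5A: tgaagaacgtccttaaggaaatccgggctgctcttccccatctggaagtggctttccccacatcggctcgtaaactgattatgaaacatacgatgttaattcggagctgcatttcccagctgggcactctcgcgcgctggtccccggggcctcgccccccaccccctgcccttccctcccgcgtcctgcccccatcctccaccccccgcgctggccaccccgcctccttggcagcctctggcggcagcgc
No match lies in this window, whose GC content is 64.4%. The window before the upstream start lies wholly in annotated exons of WNT5A itself, with 1 GC box and a GC content of 52.8%. Of all 35116 promoter windows of this length, 10.7% hold the TATA box, 11.2% the TCF/LEF core, 42.6% the GC box and 32.0% CCAAT, and a match describes letters only.

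WNT5B, the paralog of WNT5A, was higher with ZQ. It stood at 38.0, 72.8 and 29.8 CPM in the ZQ libraries and at 20.9, 17.7 and 17.02 CPM in the control libraries. The groups did not overlap, but ZQ replicate 2 held 152 of the 276 ZQ counts. Its log2 change was 1.34 ± 0.39 (SE). It was 0.78 without ZQ replicate 2, 0.93 by library totals and 0.64 when offsets for GC and length were used. Per kb of exon, WNT5B was at 10.9 ± 5.30 CPM with ZQ and 4.30 ± 0.48 CPM in control, while WNT5A was at 0.0739 ± 0.0734 CPM and 5.21 ± 0.71 CPM (SD, n = 3 each). Among the 19 human Wnt ligand genes, WNT5A made up 0.454% ± 0.430 of the length-scaled level with ZQ and 49.0% ± 2.68 in control, and WNT5B 58.3% ± 15.8 and 40.5% ± 1.56 (SD, n = 3 each). With ZQ nearly all of their sum was thus WNT5B, whereas in control the levels of both were close and together made up most of the Wnt ligand RNA. The other 17 ligand genes enter these totals, and only WNT2B among them passed the low-count filter, so the ZQ shares rest in part on few reads. The largest of the 17 with ZQ was WNT1, at 2.13 ± 2.02 CPM per kb on 16 counts, and 0.213 ± 0.298 in control (SD, n = 3 each). WNT5B lies on chromosome 12 at 1529891 to 1647243, plus strand.

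**Figure D1:**
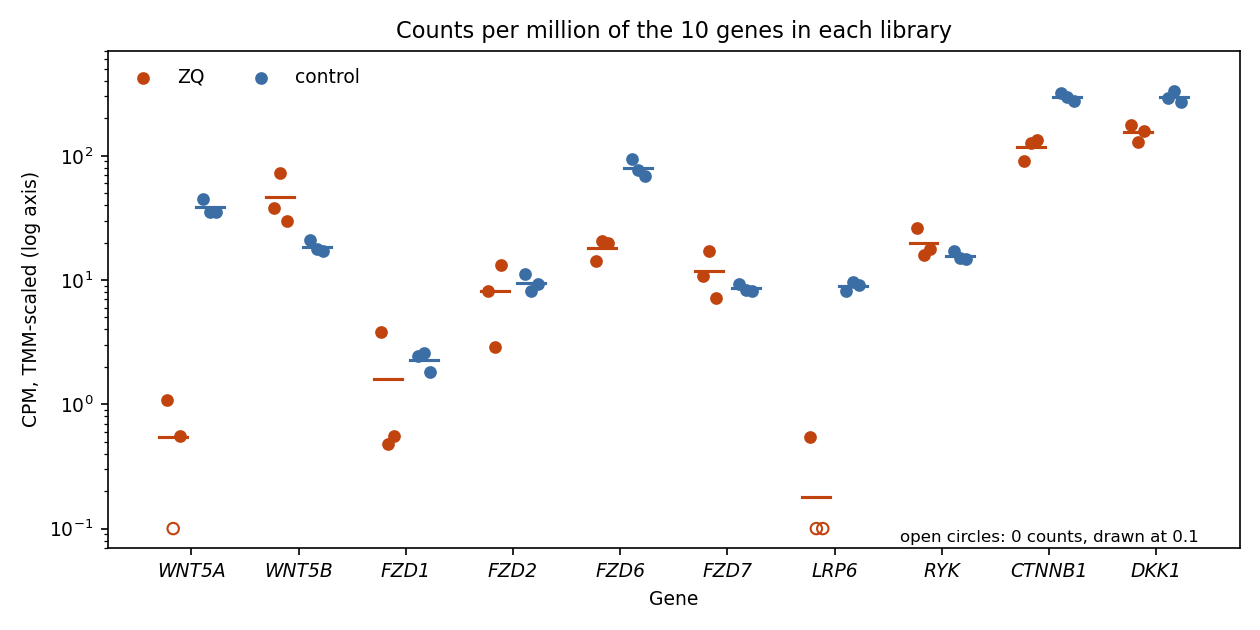
CPM of the 10 genes in each of 3 ZQ and 3 control libraries on a log axis, with the group mean as a line and libraries with 0 counts as open circles drawn at 0.1. WNT5A and LRP6 are at or near 0 counts in every ZQ library, and only WNT5B has all ZQ libraries above all control libraries.

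Of the 4 Frizzled receptors in the set, FZD6 was lower with ZQ in every library, and FZD1, FZD2 and FZD7 had overlapping groups. FZD6, a receptor tied to planar cell polarity, had 14.1, 20.6 and 19.9 CPM in the ZQ libraries and 94.7, 76.5 and 69.3 CPM in the control libraries. Every ZQ library was below every control library. The fitted log2 change of FZD6 was -2.14 ± 0.30 (SE), and offsets for GC and length gave -0.77 ± 0.28. FZD6 lies on chromosome 8 at 103298433 to 103332866 and shares 138 bases of exon with the antisense gene BAALC-AS1, which held 22 ZQ counts and 25 control counts in all, against 105 and 3636 for FZD6.

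FZD7 and FZD2 were at like CPM in both groups and much more variable with ZQ. FZD7 had 10.9, 17.2 and 7.18 CPM with ZQ and 9.21, 8.34 and 8.17 CPM in control. FZD2 had 8.15, 2.87 and 13.3 CPM with ZQ and 11.2, 8.11 and 9.24 CPM in control. For both, the control libraries lay inside the ZQ range. The fitted log2 changes were 0.46 ± 0.50 for FZD7 and -0.24 ± 0.59 for FZD2 (SE). The sign of FZD2 turned to 0.20 under upper-quartile scaling, 0.074 without ZQ replicate 2 and 0.044 without control replicate 1, and that of FZD7 to -0.022 without ZQ replicate 2. With the offsets FZD2, whose GC content of 64.9% is above that of 96.9% of tested coding genes, stood at -1.68 ± 0.62. FZD1 had the fewest reads, with 7, 1 and 1 counts in ZQ libraries and 36, 45 and 24 in control libraries, and a log2 change of -0.52 ± 0.82 (SE) that became -2.22 without ZQ replicate 1. At 1.29 ZQ counts per kb it was under the olfactory receptor density. FZD1, FZD2 and FZD7 are close paralogs that are each a single exon in GENCODE, so reads of the stretches they share may have been split between them.

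Over all 10 Frizzled genes, FZD6 made up 29.99% ± 5.86 of the length-scaled level with ZQ and 65.5% ± 3.03 in control. FZD7 made up 21.6% ± 11.4 and 7.44% ± 0.54, and FZD2 24.5% ± 12.8 and 14.97% ± 1.0504 (SD, n = 3 each). The share of FZD6 was lower in every ZQ library than in any control library, and that of FZD7 higher, while FZD2 had 1 ZQ library below the control range. FZD10, which held 2, 4 and 30 counts in ZQ libraries and none in control, enters these totals.

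LRP6, the co-receptor that carries the Wnt signal to beta-catenin, was as near to absence as WNT5A. It had 1, 0 and 0 counts in the ZQ libraries, against 120, 169 and 119 counts in the control libraries, or 8.13, 9.72 and 9.08 CPM in control. A single read made up its whole ZQ signal. Scaled for depth it was 51.7-fold lower with ZQ (95% exact binomial interval 9.23 to 2048, counting error only). In the fit its log2 change was -5.57 ± 0.97 (SE), or -5.06 with the offsets and -4.58 in limma-voom. It ran from -9.47 to -5.07 with 1 library left out, the lowest without ZQ replicate 1, which held the read. LRP6 is encoded on chromosome 12 at 12116025 to 12267012, minus strand, and its longest transcript of 10020 bases is longer than that of 95.01% of tested coding genes.

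RYK, a receptor that binds WNT5A through a domain outside the Frizzled family, was at like levels in both groups. It had 26.1, 15.8 and 17.7 CPM in ZQ libraries and 16.997, 15.02 and 14.9 CPM in control libraries. The groups overlapped. Its log2 change was 0.34 ± 0.40 (SE), and -0.055 by library totals. Offsets for GC and length moved it to 1.67 ± 0.39, and its GC content of 36.8% is above that of only 4.76% of tested coding genes. The processed pseudogene RYKP1, which may share reads, held 11 ZQ counts and 3 control counts, against 113 and 707 for RYK.

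CTNNB1, which encodes beta-catenin, was lower with ZQ in every library. It stood at 90.7, 126 and 133 CPM in ZQ libraries and 317, 299.8 and 274 CPM in control libraries. The groups did not overlap. The log2 change was -1.35 ± 0.18 (SE), and it ranged over the alternatives from -1.75 by library totals to -0.75 with the offsets. CTNNB1 lies on chromosome 3 at 41194741 to 41260096, plus strand.

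DKK1, a secreted antagonist that binds LRP6 and is itself a TCF/LEF target, was the highest of the 10 genes per kb in both groups. It had 175, 129 and 159 CPM in ZQ libraries and 289.8, 334 and 271 CPM in control libraries. All ZQ libraries were below all control libraries. Its log2 change was -0.95 ± 0.17 (SE). Offsets for GC and length gave -0.27 ± 0.21, upper-quartile scaling -0.50 and library totals -1.35. DKK1 lies on chromosome 10 at 52314296 to 52318042, plus strand, and shares 212 bases of exon with PRKG1-AS1, which had 1 count with ZQ and 43 in control. The 250 bases before its RefSeq start, at chr10:52314031-52314280 on the plus strand (GRCh38.p14), are shown because DKK1 is the target gene of the pathway among the 10, and capitals mark the same motifs on either strand.
DKK1: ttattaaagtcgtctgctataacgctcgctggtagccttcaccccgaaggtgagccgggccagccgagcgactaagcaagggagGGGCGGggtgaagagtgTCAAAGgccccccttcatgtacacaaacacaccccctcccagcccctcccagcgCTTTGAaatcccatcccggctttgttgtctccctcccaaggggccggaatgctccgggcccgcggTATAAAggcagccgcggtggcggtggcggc
The window holds 2 TCF/LEF cores, starting 149 and 95 bases before the start, a TATA box at 30 bases and 1 GC box, with no overlap between them. No TCF/LEF core was found in the windows of the other 5 genes listed in the RefSeq table, WNT5A, WNT5B, FZD1, RYK and CTNNB1. The CTNNB1 window and those before the upstream starts of WNT5A and WNT5B lie wholly in exons of their own gene.

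In all, 5 of the 10 genes were called lower (WNT5A, LRP6, FZD6, CTNNB1 and DKK1) and 1 higher, and the same 6 were those whose groups did not overlap. Over all tested genes 19% were called lower and 19.3% higher, and 28% lay lower and 25.4% higher with no overlap between groups. Since the set was picked on this comparison, the calls of these genes are a description, and their share says nothing about the genes as a group. Their median log2 change was -0.74, and that of all tested genes 0.03.

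**Figure D2:**
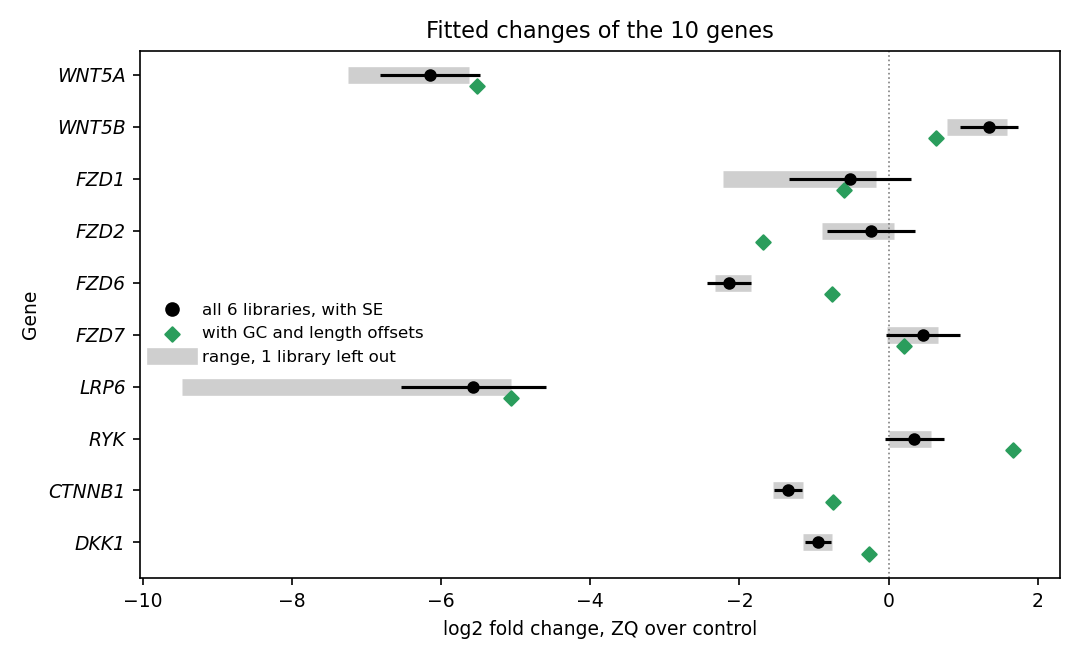
Fitted log2 fold changes of ZQ over control for the 10 genes, with SE bars from all 6 libraries, the range when 1 library is left out (grey) and the value with GC and length offsets (green diamonds). The fitted values of WNT5A (-6.16) and LRP6 (-5.57) stay below -5 with the offsets and with any 1 library left out, though the SE bar of LRP6 reaches above -5. FZD6 (-0.77) and DKK1 (-0.27) move toward 0 with the offsets and RYK (1.67) away from it.

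Ordered by CPM per kb of merged exon, the ZQ libraries ran from DKK1 (70.0 ± 10.6), WNT5B (10.9 ± 5.30), CTNNB1 (9.78 ± 1.91), FZD6 (4.48 ± 0.87), FZD2 (3.83 ± 2.46), FZD7 (3.05 ± 1.32), RYK (2.47 ± 0.68), FZD1 (0.231 ± 0.273) and WNT5A (0.0739 ± 0.0734) to LRP6 (0.0175 ± 0.0303) (SD, n = 3). WNT5B and CTNNB1 overlapped, as did the run from FZD6 to RYK and the run from FZD1 to LRP6. In control the order was DKK1 (135 ± 14.6), CTNNB1 (24.9 ± 1.81), FZD6 (19.7 ± 3.21), WNT5A (5.21 ± 0.71), FZD2 (4.50 ± 0.73), WNT5B (4.30 ± 0.48), FZD7 (2.22 ± 0.14), RYK (1.94 ± 0.15), LRP6 (0.869 ± 0.0778) and FZD1 (0.328 ± 0.0575) (SD, n = 3). There CTNNB1 overlapped FZD6 in its range over libraries, and WNT5A, FZD2 and WNT5B overlapped their neighbours. CTNNB1 has 56 annotated transcripts, so its merged exon length of 11927 bases may exceed that of its RNA and understate its level per kb.

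The spread between libraries was wider with ZQ for each of the 10 genes. With ZQ the coefficient of variation was 15.1% for DKK1, 19.5% for CTNNB1 and FZD6, 27.5% for RYK, 43.3% to 64.2% for FZD7, WNT5B and FZD2, and 99.4% to 173% for WNT5A, FZD1 and LRP6. In control it was 6.51% (FZD7) to 17.5% (FZD1). The genes with the fewest ZQ counts varied most. Control libraries held 5.95-fold more counts on average, and the part that depth had in this spread was not tested.

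**Figure D3:**
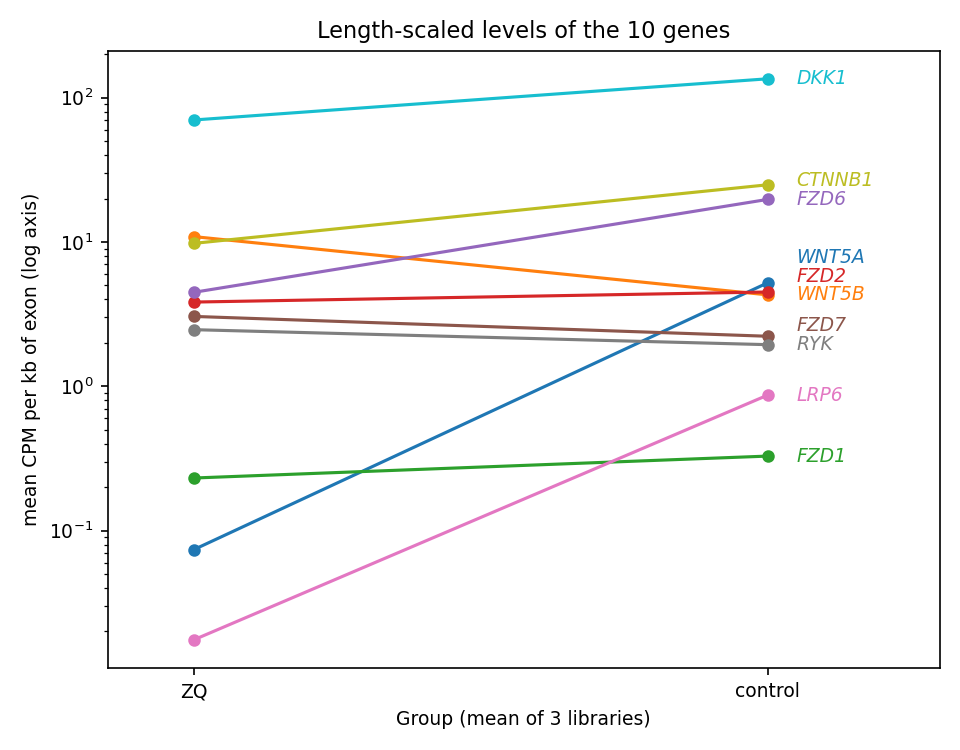
Mean CPM per kb of exon on a log axis for each gene with ZQ (left) and in control (right), 3 libraries each. WNT5A and LRP6 drop to the foot of the scale with ZQ, below FZD1, and WNT5B lies beside CTNNB1 with ZQ, at 10.9 CPM per kb, and at 4.30 CPM per kb in control.

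Over the whole table, log2 changes with ZQ were higher in genes richer in GC. When tested coding genes were cut into 5 equal bins by GC content, the bin medians ran -0.93, -0.59, -0.14, 0.33 and 0.99 from the poorest to the richest. FZD6, LRP6 and RYK belong to bin 1, WNT5A, CTNNB1 and DKK1 to bin 2, FZD1 to bin 3, FZD7 to bin 4, and WNT5B and FZD2 to bin 5. WNT5A (-6.16) and LRP6 (-5.57) lay far below the median of their bin. FZD6 (-2.14) and FZD2 (-0.24) also lay below it and RYK (0.34) above it, while FZD7, WNT5B, DKK1, FZD1 and CTNNB1 lay closer to it.

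**Figure D4:**
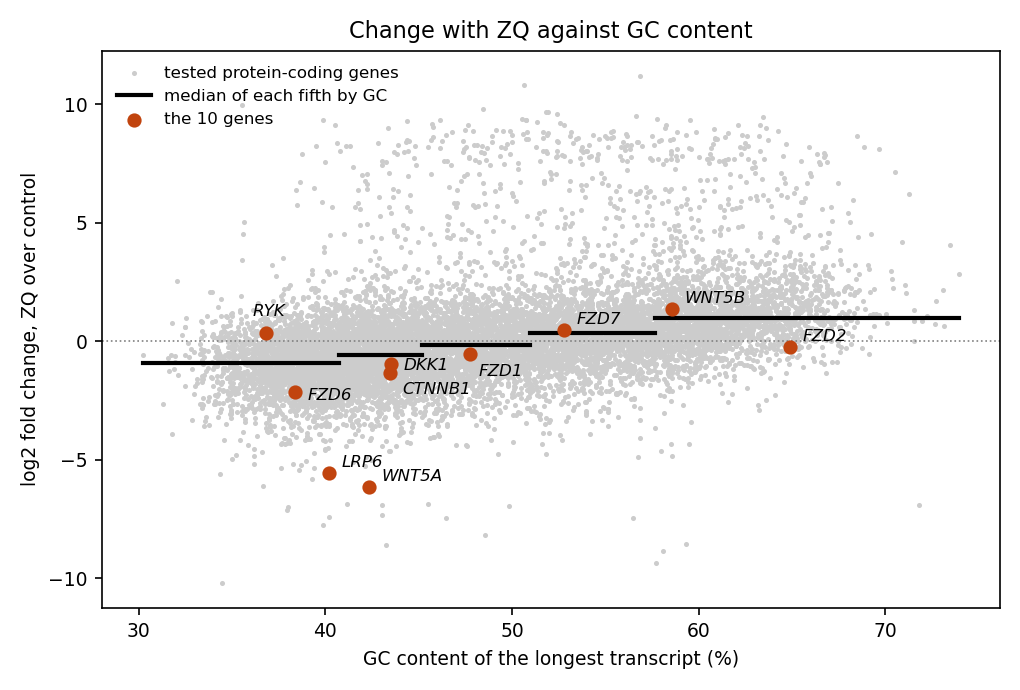
Log2 fold change of ZQ over control against GC content of the longest transcript for tested protein-coding genes (grey), with the median of each of 5 equal GC bins (black lines) and the 10 genes (orange). The medians run from -0.93 in the GC-poorest bin to 0.99 in the GC-richest, and WNT5A and LRP6 lie well below the lines.

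Among 9080 genes with at least 5 CPM in control, the 5 with profiles nearest to WNT5A over the 6 libraries (smallest root mean square difference of centred log2 CPM) included DNA2 (0.60), SENP7 (0.73) and BICD1 (0.76). The summed counts of these 3 genes were 3, 3 and 5 with ZQ and 996, 660 and 1336 in control. LRP6 came 10th at 0.82, FZD6 913th and WNT5B 8626th. DNA2 encodes a nuclease and helicase, SENP7 a SUMO protease and BICD1 a dynein adaptor.

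The other genes of the pathway came from 13 lists covering 193 genes, 142 of which were tested. Of these, 33 were called higher (23.2%) and 35 lower (24.6%), where 19.3% of all tested genes were called higher and 19% lower, with a median log2 change of 0.02. With upper-quartile scaling 49 were higher and 27 lower, and by library totals 24 and 46. Without control replicate 1 or control replicate 3 only 39 were called. With no overlap between groups, 47 of the 142 lay lower and 39 higher, where 28% and 25.4% of all tested genes did. In the lists below, fell and rose mean called lower and higher, and each count is to be read beside 19% and 19.3% of all tested genes. Olfactory receptor genes reached 16.0 ZQ counts per kb at their 99th percentile. Of the 33 called higher 20 (60.6%) lay at or under that density, as did 34.3% of the 35 called lower and 54.9% of the 142 tested. Over the whole table the shares were 49.2% of genes called higher, 43.0% of those called lower and 50.2% of all tested genes. Of the 10 genes described above, 4 lay at or under it.

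Of 8 tested genes for lipidation and secretion of Wnt proteins, 6 fell and 1 rose, a count that does not hold with the GC and length offsets, where VPS26A, TMED2, WLS and PORCN were not called. The retromer subunits VPS35 and VPS26A, which recycle the Wnt carrier WLS, fell by 1.58 ± 0.18 and 1.41 ± 0.17 on the log2 scale, and among p24 cargo receptors TMED10 fell by 1.84 ± 0.18 and TMED2 fell by 1.304 ± 0.16 (SE). The offsets left VPS26A at -0.26 and TMED2 at -0.05. WLS itself stood at 25.6 ± 17.5 CPM with ZQ and 59.9 ± 3.49 CPM in control (SD, n = 3 each, edgeR adjusted p = 0.0467), a log2 change of -1.23 ± 0.44 (SE). Only 7 of 17 alternatives called WLS, and the call ended when ZQ replicate 1 (-1.17), ZQ replicate 2 (-0.98) or any 1 of the control libraries was left out. PORCN, the acyltransferase that lipidates Wnt proteins, rose by 2.16 ± 0.63 on the log2 scale, a call that ended by library totals, with the offsets (1.56) and without ZQ replicate 2 (1.55), control replicate 1 (2.07) or control replicate 3 (2.12). Of the remaining 17 Wnt ligands, WNT2B passed the low-count filter and rose by 2.55 ± 0.62, with 53 ZQ counts and 70 control counts, at 4.22 ZQ counts per kb.

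Among the other Frizzled receptors, FZD4 fell, with 3 counts with ZQ and 228 in control, 9.64-fold lower (95% exact binomial interval 3.26 to 47.1). That interval covers counting error only, and the control libraries held 63, 57 and 108 of the counts. FZD5 had 5.57 ± 4.19 CPM with ZQ and 14.9 ± 2.74 CPM in control, and FZD3 3.15 ± 3.09 CPM and 3.86 ± 0.65 CPM (SD, n = 3 each), with no call (edgeR adjusted p = 0.109 and 0.797). The FZD5 groups did not overlap, and FZD5 was called with no low-count filter (-1.73), by library totals (-1.81) and without ZQ replicate 3 (-2.08). FZD8 held 6 counts in each group and was not tested. FZD10, named after its values were seen, was not tested either and stood at 1.99 ± 2.66 CPM per kb with ZQ, most of it from ZQ replicate 3, and at 0 in control. The WNT5A receptors ROR1 and ROR2 had 5.44 ± 3.00 and 5.45 ± 4.31 CPM with ZQ and 10.3 ± 2.50 and 8.89 ± 6.01 CPM in control (SD, n = 3 each), without a call (edgeR adjusted p = 0.246 and 0.519). LRP5, the paralog of LRP6, had 4.80 ± 5.04 CPM with ZQ and 4.34 ± 1.41 CPM in control (SD, n = 3 each, edgeR adjusted p = 0.886), where its log2 change of 0.16 turned negative in 6 alternatives, and PTK7, a polarity co-receptor, stood at -0.33 ± 0.50 on that scale (edgeR adjusted p = 0.629). Of the 6 co-receptors tested, TMEM198 rose, on 17 ZQ counts and 5 control counts.

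**Figure D5:**
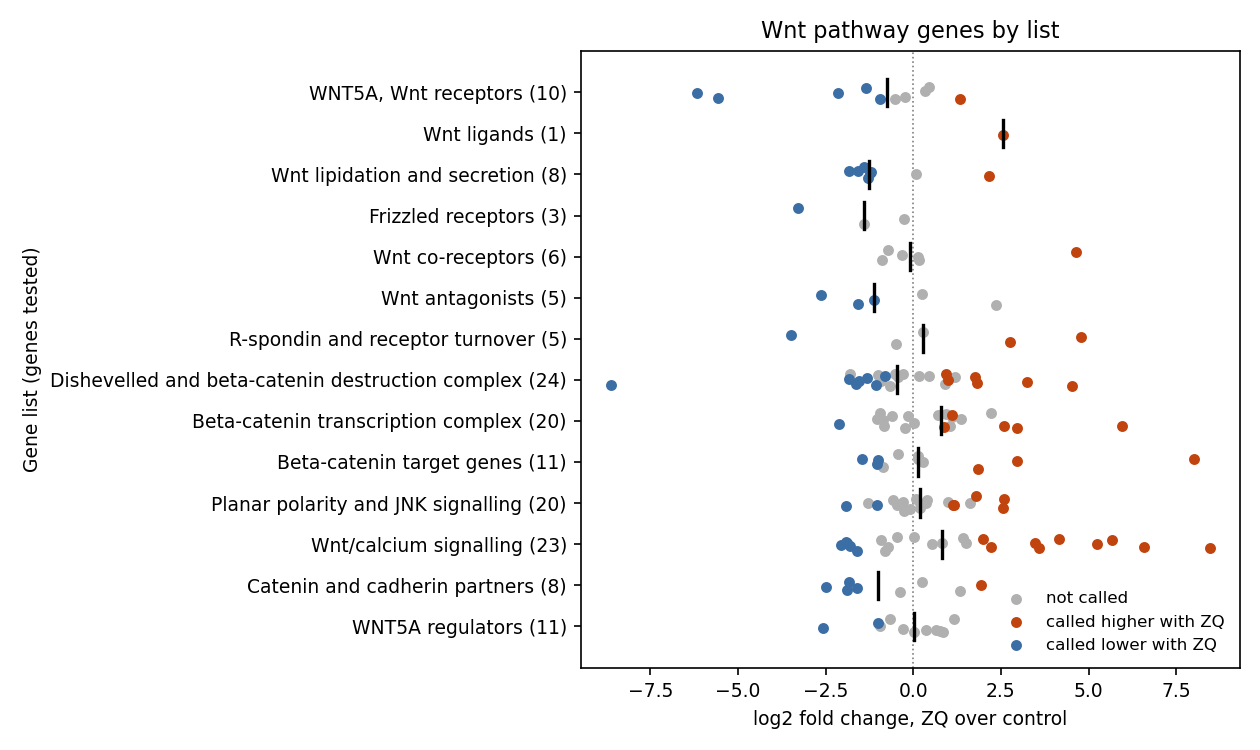
Log2 fold changes of ZQ over control for the 10 genes (top) and for tested genes of the other Wnt lists, with called genes in colour and each list's median as a black line. Genes for Wnt secretion lie mostly left of 0, with 6 of 8 called lower, and Wnt/calcium genes spread to both sides, with 9 of 23 called higher and 5 lower. Of all tested genes 19% were called lower and 19.3% higher.

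Of 5 tested antagonists, 3 fell. DKK3, a secreted relative of DKK1, fell by 1.11 ± 0.18, TMEM131L by 2.64 ± 0.48 and SFRP1, which binds Wnt ligands, by 1.57 ± 0.43 on the log2 scale (SE). The call of SFRP1 ended under upper-quartile scaling and without control replicate 1 (-1.37) or 3 (-1.36). KREMEN1, a receptor for DKK1, had 3.99 CPM with ZQ and 0.746 CPM in control (edgeR adjusted p = 0.0533), and was called in 4 of 12 alternatives. Among 5 genes of R-spondin reception and receptor turnover, the receptor LGR4 fell by 3.50 ± 0.80, while its paralog LGR6 rose by 4.79 ± 1.09 and the deubiquitinase USP6 by 2.77 ± 0.67 on the log2 scale. Without ZQ replicate 1 USP6 was at 2.13 and not called. LGR6 and USP6 rested on 25 and 28 ZQ counts, or 5.45 and 2.48 per kb. USP8 stood at -0.49 and was not called (edgeR adjusted p = 0.182), but was called with the offsets (-1.10), with no low-count filter (-0.80) and by library totals (-0.88).

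The Dishevelled proteins and the complex that destroys beta-catenin had 6 of 24 members higher and 7 lower, with a median log2 change of -0.47. DVL1, a Dishevelled scaffold that relays the receptor signal, rose by 3.23 ± 0.45 on the log2 scale, or 1.67 with the offsets, on 276 ZQ counts and 237 control counts. CSNK1A1, the kinase that primes beta-catenin for destruction, fell by 1.83 ± 0.27, and PPP2CA, a phosphatase subunit, fell by 1.054 ± 0.15, the second without a call when the offsets were used. APC2 rose by 4.53 ± 0.89 on 33 ZQ counts at 2.62 per kb, also without a call with the offsets. In the beta-catenin transcription complex 5 of 20 members rose and 1 fell (median 0.78). TCF7, a DNA-binding partner of beta-catenin, rose by 2.95 ± 0.69 and the corepressor gene TLE2 by 5.96 ± 1.07 on the log2 scale, on 78 and 36 ZQ counts. Without ZQ replicate 3 they were at 2.00 and 4.69, still called. SMARCA4, a chromatin remodeller, rose by 0.87 ± 0.23 but stood at -0.42 with the offsets and was not called without ZQ replicate 1 (0.53) or by library totals, and TBL1XR1 fell by 2.11 ± 0.40, or -0.91 and not called with them.

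Of 11 tested beta-catenin targets, 3 rose and 3 fell (median 0.13). CD44, BIRC5 and PLAUR fell by 1.47 ± 0.19, 1.04 ± 0.16 and 1.01 ± 0.23 on the log2 scale (SE), and the last was not called under upper-quartile scaling or without control replicate 1 (-0.82) or 3 (-0.78). NKD1, a feedback inhibitor, had 22 ZQ counts and no control count, at least 57.8-fold higher against a floor of 3 counts over the control group. It held 1.26 ZQ counts per kb and so was under the olfactory receptor density. That density was itself higher with ZQ, at 1.50 raw counts per kb against 0.167 in control, before scaling for depth. The part it had in the fold of NKD1 was not tested. AXIN2, the most used readout of the pathway, held 14 ZQ counts and 6 control counts and was not tested.

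In the planar polarity and JNK list 5 of 20 members rose and 2 fell (median 0.20). The GTPase RAC1 rose by 1.17 ± 0.18, the kinase NLK by 1.79 ± 0.46 and the cadherin CELSR3 by 2.56 ± 0.54, while the kinase MAP3K7 fell by 1.91 ± 0.35 on the log2 scale (SE). CELSR3 and MAP3K7 were not called with the offsets. In the Wnt/calcium list 9 of 23 rose and 5 fell (median 0.83). The conventional protein kinase C gene PRKCA fell by 1.90 ± 0.32, whereas CAMK2A rose by 6.58 ± 0.82 and PLCB2 by 4.14 ± 0.67, on 58 and 30 ZQ counts, and PRKCB had 29 ZQ counts and no control count, at least 76.2-fold higher. CAMK2A, PLCB2 and PRKCB held 9.43, 4.08 and 2.62 ZQ counts per kb, under the 16.0 of olfactory receptor genes at their 99th percentile. The pooled density of those genes was also higher with ZQ, at 1.50 raw counts per kb against 0.167 in control, before scaling for depth. The part that this background had in the folds of CAMK2A, PLCB2 and PRKCB was not tested.

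Of 8 catenin and cadherin partners, 4 fell and 1 rose (median -1.002). CTNNA1, the alpha-catenin that ties beta-catenin to actin, fell by 1.83 ± 0.17, and its relative CTNNAL1 fell by 1.61 ± 0.16 on the log2 scale (SE). CDH2, the N-cadherin that anchors beta-catenin at the membrane, fell by 2.49 ± 0.25. PKP3, a desmosomal plakophilin, rose by 1.92 ± 0.50, or 0.46 and not called with the offsets. Of 11 genes known to act upstream of WNT5A transcription, TGFBR1 and TEAD1 fell, by 2.58 ± 0.64 and 1.00 ± 0.26, neither called with the offsets, and TEAD1 was also not called without control replicate 1 (-0.82) or 3 (-0.80). Without ZQ replicate 3 TGFBR1 was at -4.17. SP1 and YAP1 had log2 changes of 0.76 and 1.15 without a call (edgeR adjusted p = 0.0663 and 0.127). SP1 was called in 5 of 17 alternatives, the offsets (0.99) among them, and YAP1 in 2, with the offsets (1.71) and under upper-quartile scaling (1.59). Without ZQ replicate 3 YAP1 was at 0.23.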

How the data were processed

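The values used are raw counts of reads per gene as deposited, with no normalisation and a column for each library. Per the labels' protocols, RNA was extracted with TRIzol and cleaned with DNase I before NEBNext Ultra library preparation. The submitters' processing notes name GRCh38 and Cufflinks 2.1.1, with no role. For the aligner, the counter, the annotation and strandedness nothing is given in the sources used, and reads of antisense genes cannot be told apart. The members and the gene lists were chosen with earlier results of these data known.

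ZQ was compared with control in edgeR 4.0.16 (R 4.3.3), using filterByExpr (minimum count 10, minimum total count 15), TMM scaling and quasi-likelihood F-tests, Benjamini-Hochberg adjusted over 12994 genes and a threshold of 0.05. The SE is the size of a log2 change over the square root of F. Symbols were matched by Ensembl ID for 60463 rows. Positions, exon lengths and GC content came from GENCODE release 29, promoter windows from RefSeq (GRCh38.p14). Offsets for GC content and length were smooth curves per library (mgcv 1.9.3). Alternatives used DESeq2 1.42.0, limma 3.58.1 voom, other scalings and filters, thinned controls, a fit blocked on replicate number, and fits that left out 1 library. The fit was tested on simulated data. Named pathway genes are up to 4 per list with the smallest adjusted p and 10 fixed receptors, carriers and targets. Of the 5 genes most like WNT5A, 3 are named and the others are not reported here.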

Additional observations from a re-analysis of the deposited data

How the results depend on the processing

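WNT5A, LRP6 and CTNNB1 were past the threshold under all 17 alternatives, but the genes were chosen on this comparison, so that is no evidence of stability. With the offsets FZD6 and DKK1 were not called and RYK was. WNT5B was not called with the offsets, by library totals or without ZQ replicate 2, control replicate 2 (1.41) or control replicate 3 (1.44). Some values without a call changed sign. FZD2 was 0.20 under upper-quartile scaling and ran from -0.89 to 0.074 with 1 library left out, FZD7 from -0.022 to 0.67, and RYK was -0.055 by library totals. FZD3 was 0.18 under upper-quartile scaling, 0.15 with GC and length offsets and -1.58 to 0.047 with 1 library left out. ROR2 ran from -1.25 to 0.081 and PTK7 from -0.57 to 0.37 with 1 library left out, and PTK7 was 0.12 under upper-quartile scaling. LRP5 was -0.26 by library totals, -0.15 without a low-count filter, -0.28 in limma-voom, -0.20 with the replicate block, -1.25 with the offsets and -1.27 to 0.53 with 1 library left out. SMARCA4 was -0.42 with the offsets.

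Of all genes, 11603 were called without a low-count filter, where 38214 were tested, and 2794 to 5407 with 1 library left out, against 4978 with all. Other pathway genes called ran from 39 to 71 with 1 library left out, against 68. Same-numbered libraries were not paired by the labels. Their deviations correlated at 0.01, 0.04 and 0.03 across genes, each library best with its own number, and the replicate block gave 4405 calls and 6 of 10 members. Depth limits WNT5A, LRP6 and FZD1 most, with 3, 1 and 9 ZQ counts.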
